A study of Mus musculus with 6 samples.

Results

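The 10 genes described here belong to the pathways that make and sense leukotrienes, prostaglandins and platelet-activating factor (PAF), and were taken by name from the deposited count table, which held 54532 genes. All 10 passed the filter on low counts that left 14174 genes for testing. RNA-seq was performed on 6 libraries of cultured mouse dendritic cells, of which 3 were control and 3 were treated with DB2313, a small molecule that the study used to inhibit Spi1 (PU.1), a transcription factor of myeloid cells. The labels gave the cell type and the treatment only, with no strain, sex, age, dose or time, and they named dendritic cells, whereas the paper described macrophages. In the count table the control columns were called BMDC and the other columns SPI1, which were read here as the DB2313 libraries. If that reading is wrong, so are all directions given. Nothing in the labels said whether the 3 libraries of a group came from separate cultures or animals, so the p-values measure the spread between these libraries, which may be technical.

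Leukotrienes and prostaglandins are made from arachidonic acid, which phospholipases release from membranes. In the leukotriene branch, 5-lipoxygenase (Alox5) works with the membrane protein FLAP (Alox5ap) to make leukotriene A4, which Lta4h turns into the neutrophil attractant leukotriene B4 and which Ltc4s turns into leukotriene C4, the parent of the cysteinyl leukotrienes sensed by Cysltr1. In the prostaglandin branch, the cyclooxygenases Ptgs1 (constitutive) and Ptgs2 (inducible) feed the synthesis of prostaglandin E2, which dendritic cells sense through the cAMP-raising receptors Ptger2 and Ptger4. PAF is a phospholipid mediator made from membrane lipids and sensed by Ptafr.

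With DB2313, 3 genes of mediator synthesis (2 enzymes and the 5-lipoxygenase partner Alox5ap) rose and 2 receptors fell, and no change exceeded 2-fold. Only the call of Ptafr held in all 15 alternative analyses given below, and that of Alox5ap held in 7 of them. Lta4h rose 1.24-fold, Ptgs1 1.19-fold and Alox5ap 1.17-fold. Ptafr was at 0.693 times and Cysltr1 at 0.640 times its control level. The other 5 genes, namely Alox5, Ltc4s, Ptgs2, Ptger2 and Ptger4, did not pass the test. In bulk RNA, fewer cells of a type and less RNA per cell cannot be told apart. Calls were made with edgeR's quasi-likelihood test, fitted and adjusted over all 14174 genes, at an adjusted p under 0.05. This rule called 10.6% of all genes tested, 4.66% as higher and 5.94% as lower. The 10 genes and the pathway lists below were chosen with earlier results of these data known. Their counts beside such shares are therefore a description and not a test. The median log2 fold change was -0.012 over the 10 genes and 8.2e-04 over all genes tested. All values below are CPM, that is, read counts scaled by TMM to a common library size and given per 1000000 reads, unless another scale is named.

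**Figure D1:**
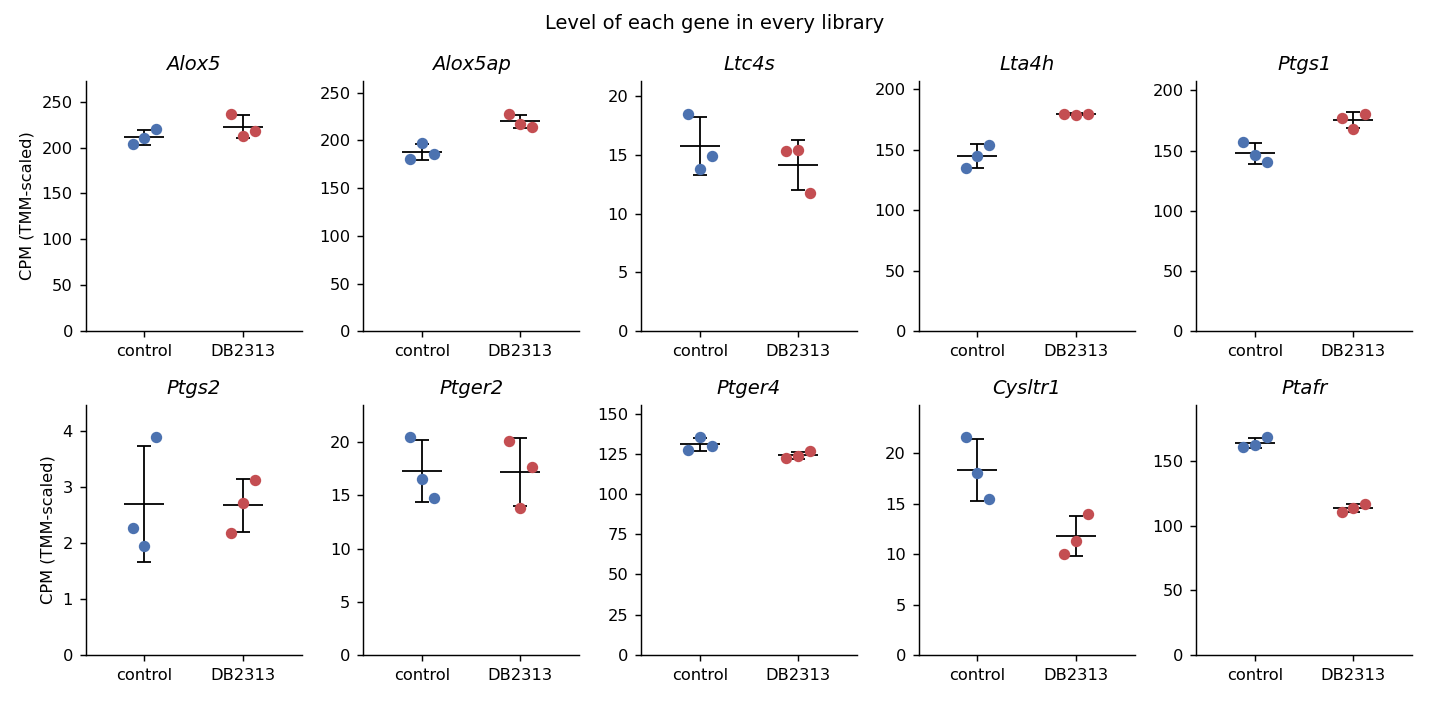
CPM of each of the 10 genes (y axis, from 0, own scale in each panel) in the 3 control (blue) and 3 DB2313 (red) libraries, with the mean and SD of each group in black. The DB2313 points lie above all control points for Alox5ap, Lta4h and Ptgs1 and below them for Cysltr1, Ptafr and, narrowly, Ptger4.

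Total counts ranged from 16146743 to 19764677 per library. Of the markers of the labelled cell type, 14 of 15 dendritic cell markers passed the filter on low counts, with Cd209a not passing and Xcr1 at 1.04 CPM in control. Markers of macrophages (14 of 14), neutrophils (14 of 14) and mast cells and basophils (10 of 14) were also measured, whereas fibroblast markers summed to at most 4.39 CPM. Since macrophage and neutrophil markers passed in full, passing this filter cannot settle the cell type. DB2313 replicates 1 and 3 were the least alike of all replicate pairs, with a chi-square statistic per degree of freedom of 17.7, against 4.77 to 5.28 between control libraries. Spi1 itself had 345 to 380 CPM in the control and 309 to 349 CPM in the DB2313 libraries (edgeR adjusted p = 0.206).

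Promoter sequences are shown for the called genes that had an entry in the promoter table of RefSeq (build GRCm38.p6), because DB2313 is described as acting on a DNA-binding factor. Of the 10 genes 8 had an entry, and Alox5ap and Cysltr1 had none. Each sequence is the 250 bases before the start in RefSeq, written 5′ to 3′ on the strand of the gene. This start was that of the count table in 5 of the 8 genes; the window ended 15 bases before it in Lta4h and 84 bases before it in Ptger2, and reached 84 bases into the gene in Ltc4s. Capitals mark 2 motifs searched on both strands, the PU.1 core GAGGAA and the GC box GGGCGG, or their reverse complements.
Lta4h, chr10:93453146-93453395, plus strand: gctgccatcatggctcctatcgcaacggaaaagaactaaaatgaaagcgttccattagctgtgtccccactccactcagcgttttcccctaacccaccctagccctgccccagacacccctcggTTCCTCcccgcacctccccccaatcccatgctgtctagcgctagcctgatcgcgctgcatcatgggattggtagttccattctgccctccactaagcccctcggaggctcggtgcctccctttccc
Ptgs1, chr2:36230176-36230425, plus strand: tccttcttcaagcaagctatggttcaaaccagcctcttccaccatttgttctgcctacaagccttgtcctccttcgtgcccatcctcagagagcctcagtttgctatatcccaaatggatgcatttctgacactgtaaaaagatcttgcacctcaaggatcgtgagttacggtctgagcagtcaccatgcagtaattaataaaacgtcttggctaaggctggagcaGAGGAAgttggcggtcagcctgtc
Ptafr, chr4:132563817-132564066, plus strand: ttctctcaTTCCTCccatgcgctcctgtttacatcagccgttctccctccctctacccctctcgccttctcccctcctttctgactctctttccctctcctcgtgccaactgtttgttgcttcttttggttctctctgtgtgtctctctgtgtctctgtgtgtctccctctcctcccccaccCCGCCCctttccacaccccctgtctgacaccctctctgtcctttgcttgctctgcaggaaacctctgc
The PU.1 core began 24 bases before the RefSeq start in Ptgs1, 126 bases before it in Lta4h and 242 bases before it in Ptafr. The windows of Alox5 and Ptgs2 also held 1 each, so that 5 of the 8 windows had the letters, which 23.3% of all 32817 promoter windows of this length had. The GC box was found in the windows of Alox5, Ptgs2, Ptafr and Ptger4 (4 of 8, with 4 matches in Ptger4), against 32.7% of all windows. The core of the cAMP response element, CGTCA, was also searched and was in none of the 8 windows and in 17.7% of all. A match of letters is a description of the sequence and not evidence of binding.

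The first enzyme of the leukotriene branch was compared with its helper. Alox5 (ENSMUSG00000025701, GRCm38 chromosome 6, 116410077 to 116461178, minus strand) had 204, 210 and 220 CPM in control replicates 1 to 3 and 237, 213 and 218 CPM in DB2313 replicates 1 to 3. The groups overlapped, and the log2 fold change of 0.076 had a 95% interval from -0.073 to 0.23 (edgeR adjusted p = 0.573). Alox5ap (ENSMUSG00000060063, chromosome 5, 149264767 to 149288153, plus strand) had 181, 197 and 186 CPM in control and 228, 218 and 215 CPM with DB2313. All DB2313 libraries lay above all control libraries. The log2 fold change was 0.23 ± 0.07 (SE), with an edgeR adjusted p of 0.0445, close to the threshold. The call was lost without control replicate 1, 2 or 3 (adjusted p = 0.184, 0.0787 and 0.162) and without DB2313 replicate 1 or 2 (0.0745 and 0.159), and with an offset for gene length (0.103). It was also lost with the replicate number as a block, without and with that offset (0.13 and 0.187). Alox5ap shares 189 exonic bases with the antisense gene Gm19719, which had 102 counts in all libraries together. The ratio of Alox5ap to Alox5 counts within a library, which does not depend on scaling, was 0.887, 0.936 and 0.847 in control and 0.963, 1.02 and 0.982 with DB2313. The ranges did not overlap, with an exact two-sided permutation p of 0.1, the smallest that 3 against 3 libraries can give.

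Downstream of leukotriene A4, the hydrolase rose and the C4 synthase did not pass the test. Lta4h (ENSMUSG00000015889, chromosome 10, 93453411 to 93484875, plus strand) had 135, 145 and 154 CPM in control and 180, 179 and 180 CPM with DB2313. The DB2313 libraries were nearly equal to each other and all above control. Its log2 fold change of 0.31 ± 0.07 (SE) had an edgeR adjusted p of 0.0112. Without control replicate 1 or 2, or DB2313 replicate 2, the adjusted p was 0.0803, 0.0542 and 0.0661. Ltc4s (ENSMUSG00000020377, chromosome 11, 50236461 to 50238616, minus strand) had 18.5, 13.8 and 14.9 CPM in control and 15.4, 15.5 and 11.7 CPM with DB2313, from 195 to 308 counts per library. The groups overlapped, the log2 fold change was -0.15 with a 95% interval from -0.47 to 0.17, and the edgeR adjusted p was 0.615. The fold change was -0.014 without control replicate 1 and -0.029 without DB2313 replicate 3. Of its 1014 bases, 268 are shared with the antisense gene Gm26542, and the strand setting of the counting was not stated. The counts of Lta4h divided by those of Ltc4s, a ratio chosen after the values were seen, were 7.31, 10.5 and 10.4 in control and 11.7, 11.6 and 15.3 with DB2313. All DB2313 ratios were above all control ratios (exact two-sided permutation p = 0.1, the smallest possible). Because the ratio was chosen on these values, that p is a description and not a test. The log2 difference of this ratio was 0.46, with 0.29 without control replicate 1 and 0.33 without DB2313 replicate 3.

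The cyclooxygenases were far apart in level. Ptgs1 (ENSMUSG00000047250, chromosome 2, 36230426 to 36252272, plus strand) had 157, 146 and 140 CPM in control and 177, 168 and 181 CPM with DB2313, with no overlap between the groups. The log2 fold change of 0.25 ± 0.07 (SE) had an edgeR adjusted p of 0.0398. The adjusted p rose to 0.0574, 0.144 and 0.187 without control replicates 1, 2 and 3 and to 0.101 without DB2313 replicate 2. Ptgs1 shares 148 exonic bases with Gm43621 on the other strand, which had 38 counts in all libraries together. Ptgs2 (ENSMUSG00000032487, chromosome 1, 150100031 to 150108227, plus strand) had only 31 to 62 counts per library, at 2.28, 1.95 and 3.89 CPM in control and 2.19, 2.71 and 3.13 CPM with DB2313. At this depth the 95% interval of its log2 fold change ran from -0.69 to 0.66, and a change within it was not detectable (edgeR adjusted p = 0.984). Ptgs2 counts were 0.0123 to 0.0278 of those of Ptgs1 across the 6 libraries, and the ratio overlapped between groups (exact permutation p = 0.8, two-sided).

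The pair of prostaglandin E2 receptors did not pass the test. Ptger4 (ENSMUSG00000039942, chromosome 15, 5206661 to 5244187, minus strand) had 127, 135 and 130 CPM in control and 122, 124 and 127 CPM with DB2313. The DB2313 libraries were just below the control libraries, as was the case for 14.5% of all genes tested. Its log2 fold change was -0.076 with a 95% interval from -0.22 to 0.071 (edgeR adjusted p = 0.567). Ptger2 (ENSMUSG00000037759, chromosome 14, 44988195 to 45003820, plus strand) was lower in level, at 20.5, 16.6 and 14.8 CPM in control and 20.2, 13.8 and 17.7 CPM with DB2313. Its groups overlapped, and the log2 fold change of -0.0093 had an interval from -0.34 to 0.32 (edgeR adjusted p = 0.981). On the other strand, Ptger4 shares 1015 exonic bases with the pseudogene Gm15937 (0 counts) and 82 with Ttc33 (3183 counts), and Ptger2 shares 246 with Gm17173 (70 counts) and 144 with Gm49364 (7 counts, all libraries together). Counts of Ptger4 were 6.06 to 8.94 times those of Ptger2 across libraries, with overlap between groups (exact two-sided permutation p = 0.8).

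The receptors for PAF and for cysteinyl leukotrienes fell. Ptafr (ENSMUSG00000056529, chromosome 4, 132564067 to 132582683, plus strand), a G protein-coupled receptor of myeloid cells, had 161, 163 and 169 CPM in control and 110, 114 and 117 CPM with DB2313. The groups were separated by a gap wider than the range of either. The log2 fold change was -0.53 ± 0.07 (SE), with an edgeR adjusted p of 1.6e-04, and the call held without any single library. A stretch of at most 166 bases of Ptafr transcripts matched those of 35 other genes at 95% identity or more; for the other members, matches were found only with the genes named here as overlapping them on the other strand. Cysltr1 (ENSMUSG00000052821, chromosome X, 106574346 to 106603679, minus strand) had 21.6, 18 and 15.5 CPM in control and 10.02, 11.3 and 13.9 CPM with DB2313, from 165 to 351 counts per library. The control libraries spread widely, and the lowest of them was above the highest DB2313 library. The log2 fold change of -0.64 ± 0.15 (SE) had an edgeR adjusted p of 0.0143. Without control replicate 1 it was -0.51 (adjusted p = 0.101), and the adjusted p was 0.0539 without control replicate 2 and 0.0712 without DB2313 replicate 2.

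**Figure D2:**
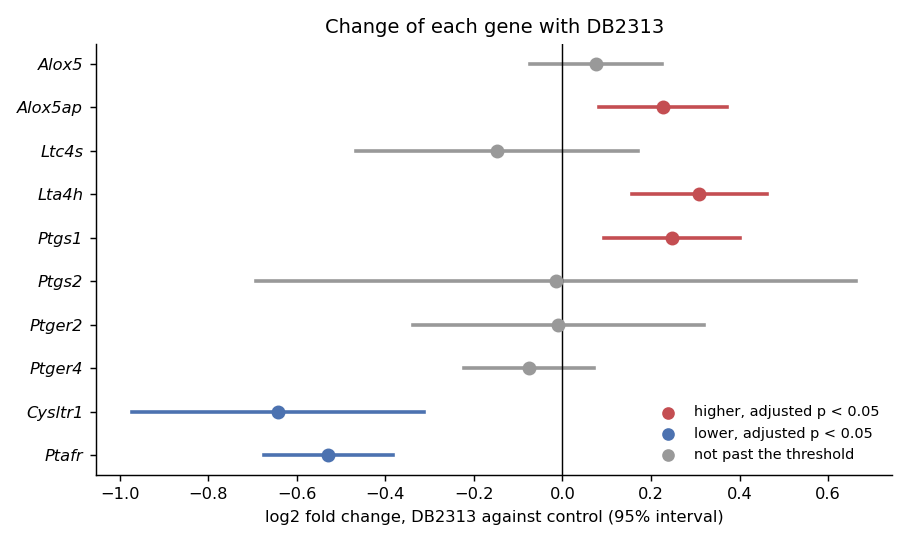
Log2 fold change of the 10 genes, DB2313 against control (points), with 95% intervals (lines), from edgeR. The intervals of Alox5ap, Lta4h and Ptgs1 lie above 0 and those of Cysltr1 and Ptafr below 0, and that of Ptgs2, the gene with the fewest counts, is the widest.

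The CPM of the 2 groups did not overlap for 6 of the 10 genes, 3 with DB2313 above and 3 below, where 27.4% of all genes tested did not overlap, 12.9% with DB2313 above and 14.5% below. The marker counts that follow are edgeR calls, a rule that called 4.66% of all genes tested as higher and 5.94% as lower. Of the macrophage markers, 9 of 14 were lower and 1 higher with DB2313. Their summed level was 10300 to 11680 CPM in control and 9153 to 10040 CPM with DB2313. Dendritic cell markers summed to 13320 to 13550 CPM in control and 11400 to 13240 CPM with DB2313, with 3 lower and 1 higher of 14 tested. Of the neutrophil markers, 5 of 14 were higher and 1 lower, with sums of 4971 to 5456 and 5365 to 6691 CPM. For mast cells and basophils, 2 of the 10 markers tested were higher, with sums of 2523 to 2722 and 2572 to 3082 CPM, and Tpsab1 was at 0 in all libraries. Eosinophil markers summed to 197 to 255 CPM in control and 174 to 251 CPM with DB2313, with 1 of 8 lower. Platelet markers summed to 189 to 217 CPM in control and 203 to 246 CPM with DB2313, with Gp1bb at 0, and T cell markers to 209 to 243 and 211 to 316 CPM. Several of the 10 genes are expressed by more than 1 of these cell types, and the part of cell composition in their changes was not tested.

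Compared per gene length, as RPKM from the deposited gene lengths, the 10 genes spanned levels from below 1 to above 100. In control, the order was Alox5ap (132 ± 5.73), Alox5 (51.5 ± 1.94), Ptafr (45.1 ± 1.04), Ptgs1 (38.02 ± 2.22), Lta4h (23.7 ± 1.57), Ptger4 (19.7 ± 0.612), Ltc4s (15.5 ± 2.43), Cysltr1 (3.57 ± 0.595), Ptger2 (3.33 ± 0.559) and Ptgs2 (0.590 ± 0.227, RPKM ± SD, n = 3). Of these neighbours, Cysltr1 and Ptger2 were the only pair whose libraries overlapped. With DB2313, Ptgs1 (45.1 ± 1.73 RPKM) stood above Ptafr (31.3 ± 0.900 RPKM), the reverse of control. Ptger2 (3.32 ± 0.613 RPKM) and Cysltr1 (2.29 ± 0.388 RPKM) also changed places, with libraries that still overlapped.

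**Figure D3:**
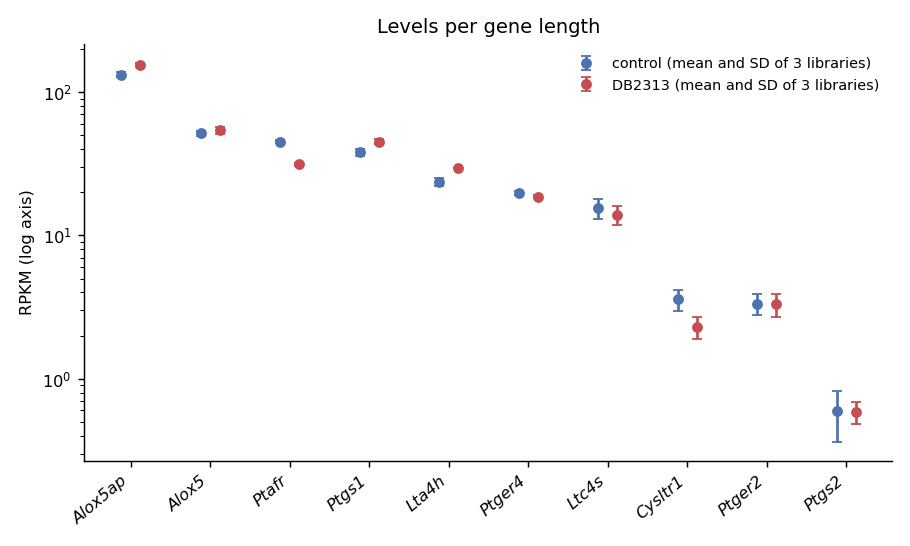
RPKM (log axis) of the 10 genes in control (blue) and with DB2313 (red), as mean and SD of 3 libraries, in the order of control. Alox5ap is the highest in both groups and Ptgs2 the lowest, and Ptafr and Ptgs1 exchange their order.

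The rest of the pathway was taken from 7 lists of 70 gene names (71 identifiers), of which 51 passed the filter on low counts. With DB2313, 6 of the 51 rose and 6 fell, beside 10.6% of all genes tested, and their median log2 fold change was -0.010. The groups did not overlap for 11 of the 51 with DB2313 above control and 12 below, where 27.4% of all genes tested did not overlap (12.9% above and 14.5% below).

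Among 12 other leukotriene genes tested, 4 rose and none fell in edgeR, DESeq2 and limma-voom, where 4 higher and 1 lower had an unadjusted p under 0.05 in edgeR. Of all genes tested, edgeR called 4.66% as higher and 5.94% as lower. Its unadjusted p was under 0.05 for 3309 of all 14174, in either direction. The median log2 fold change of the 12 was 0.086. Mgst3, a microsomal glutathione transferase of the same protein family as Ltc4s and Alox5ap, rose from 9.67 ± 1.19 to 20.7 ± 1.52 CPM (SD, n = 3 each). Its log2 fold change of 1.10 ± 0.13 (SE) had an edgeR adjusted p of 8.9e-05. Mgst2, which can also conjugate leukotriene A4 with glutathione, rose from 29.6 ± 2.67 to 38.6 ± 0.570 CPM (edgeR adjusted p = 0.0172). Cyp4f18, a cytochrome P450 of myeloid cells that hydroxylates leukotriene B4, rose from 104 ± 4.13 to 151 ± 6.998 CPM (edgeR adjusted p = 2.0e-04), and 181 of its exonic bases are shared with Zfp961 on the other strand. Ptgr1, which oxidises leukotriene B4 and reduces prostaglandin breakdown products, rose from 41.7 ± 1.41 to 50.8 ± 2.95 CPM (edgeR adjusted p = 0.0427). The call of Mgst2 was lost without control replicate 1 or 2 or DB2313 replicate 2 (adjusted p = 0.0665, 0.0975 and 0.0686), and that of Ptgr1 without control replicates 1 to 3 (0.164, 0.103 and 0.110) and DB2313 replicates 1 and 2 (0.1001 and 0.0879). The leukotriene B4 receptor Ltb4r1 was at 66.4 ± 2.52 and 63.6 ± 3.41 CPM and Cysltr2 at 4.69 ± 1.41 and 4.33 ± 0.630 CPM in control and with DB2313, and neither passed (edgeR adjusted p = 0.714 and 0.842).

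Genes of PAF synthesis and breakdown held 3 that fell and none that rose, of 14 tested, in edgeR, DESeq2 and limma-voom. Of all genes tested, edgeR called 5.94% as lower and 4.66% as higher. The median log2 fold change of the 14 was 2.2e-04, and the groups did not overlap for 3 with DB2313 above control and 4 below. Over all genes tested, 27.4% did not overlap, 12.9% with DB2313 above and 14.5% below. The unadjusted p in edgeR was under 0.05 for 1 higher and 4 lower of the 14, and for 3309 of all 14174 genes in either direction. Lpcat2, the acetyltransferase that makes PAF in activated myeloid cells, fell from 130 ± 7.04 to 109 ± 3.69 CPM, with an edgeR adjusted p of 0.0375. It shares 287 exonic bases with Gm45472 on the other strand, which had 61 counts in all libraries together. Lpcat1, a related acyltransferase, fell from 119 ± 8.18 to 93.0 ± 1.42 CPM (edgeR adjusted p = 0.00594). Pafah1b3, a catalytic subunit of an intracellular PAF acetylhydrolase, fell from 30.0 ± 1.47 to 21.2 ± 1.17 CPM (edgeR adjusted p = 0.00439). Pla2g7, the secreted PAF acetylhydrolase and the highest of the list in CPM, was at 434 ± 34.4 and 377 ± 25.7 CPM in control and with DB2313 and did not pass (edgeR adjusted p = 0.114). Lpcat2 was not called without control replicates 1 to 3 or DB2313 replicate 2 (adjusted p = 0.185, 0.0810, 0.117 and 0.213). Nor was it called with library totals (0.0645), no filter (0.0567) or the replicate number as a block (0.0930). Lpcat1 was not called without control replicate 3 (0.0552).

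Of 8 genes of arachidonate release tested, 1 rose and 2 fell, beside 4.66% higher and 5.94% lower of all genes tested. Pla2g16, a phospholipase of adipose tissue and other cells, rose from 83.4 ± 5.98 to 102 ± 9.02 CPM (edgeR adjusted p = 0.0464). Pla2g15, a lysosomal phospholipase, fell from 113 ± 2.98 to 80.8 ± 6.20 CPM (edgeR adjusted p = 0.00106). Mgll, which frees arachidonate from the endocannabinoid 2-arachidonoylglycerol, fell from 93.2 ± 3.79 to 69.0 ± 5.99 CPM (edgeR adjusted p = 0.00311). It shares 167 exonic bases with Gm26588 on the other strand, which had 43 counts in all libraries together. Pla2g4a, the cytosolic phospholipase that supplies most of the arachidonate used for eicosanoids, was at 32.2 ± 3.31 and 34.5 ± 2.39 CPM and did not pass (edgeR adjusted p = 0.628). Of 3 other lipoxygenases tested, Alox15, the 12/15-lipoxygenase, fell from 35.9 ± 3.99 to 25.7 ± 2.77 CPM (edgeR adjusted p = 0.0115). Pla2g16 was not called without control replicates 1 to 3 or DB2313 replicate 2 (adjusted p = 0.0604, 0.176, 0.195 and 0.252), nor Alox15 without control replicate 2 or 3 or DB2313 replicate 2 (0.0803, 0.0616 and 0.0618).

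Of 8 terminal prostanoid synthases tested, 1 rose and none fell, beside 4.66% higher and 5.94% lower of all genes tested. Akr1b3, an aldose reductase that can make prostaglandin F2alpha, rose from 101 ± 3.20 to 122 ± 4.16 CPM (edgeR adjusted p = 0.0198). This call was lost without control replicates 1 to 3 or DB2313 replicate 2 (0.0947, 0.0969, 0.0586 and 0.104). The thromboxane synthase Tbxas1 was at 119 ± 7.55 and 102 ± 7.93 CPM (edgeR adjusted p = 0.0862), the prostaglandin D synthase Hpgds at 16.8 ± 0.969 and 16.1 ± 2.47 CPM (0.835), and the inducible prostaglandin E synthase Ptges at 4.66 ± 1.84 and 3.99 ± 1.01 CPM (0.717). None of 4 other prostanoid receptors passed in edgeR, DESeq2 or limma-voom. In edgeR, 1 higher and 1 lower of the 4 had an unadjusted p under 0.05, as did 3309 of all 14174 genes. The nearest was the prostacyclin receptor Ptgir, at 40.7 ± 2.93 and 33.0 ± 1.95 CPM, with an adjusted p of 0.0503, which was 0.0352 without DB2313 replicate 1, 0.0344 without DB2313 replicate 3 and 0.0247 with the length offset. Neither of the 2 genes of transport and breakdown passed in edgeR, DESeq2 or limma-voom, nor had an unadjusted p under 0.05, the lower p being that of the exporter Abcc4, at 35.1 ± 1.68 and 31.3 ± 6.02 CPM (adjusted p = 0.460, and 0.0317 without DB2313 replicate 3).

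**Figure D4:**
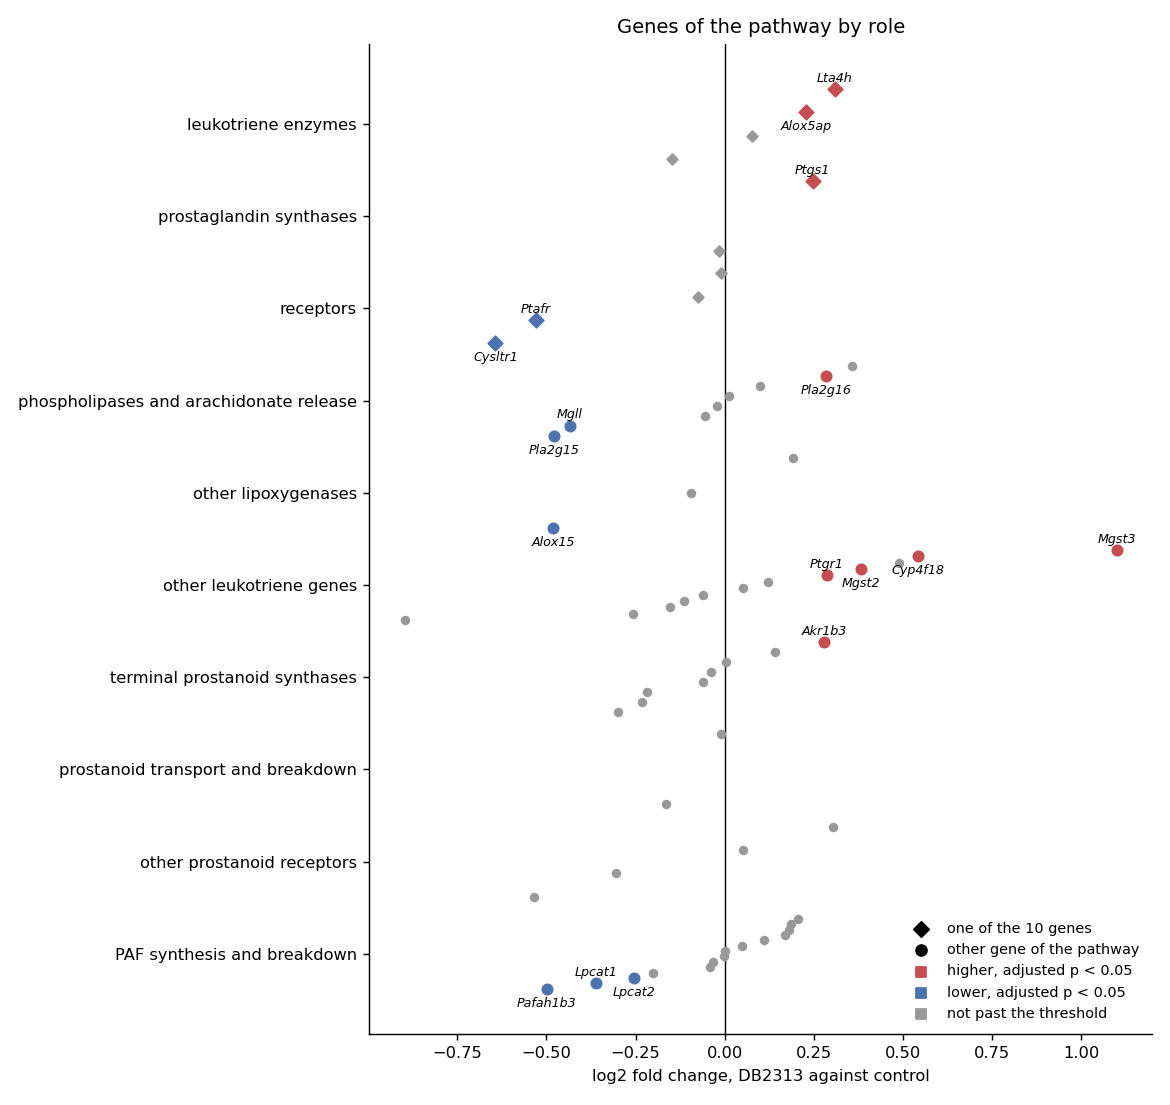
Log2 fold change, DB2313 against control, of the 10 genes (diamonds) and the 51 other genes of the pathway tested (circles), by role on the y axis. Genes past an adjusted p of 0.05 in edgeR are coloured and named, red when higher and blue when lower. Those of PAF synthesis and breakdown are all on the lower side and those of other leukotriene genes all on the higher side.

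The 5 calls differed in how many of the alternatives they passed. Ptafr passed in all 15 alternatives, from -0.55 to -0.51 on the log2 scale. Cysltr1 and Lta4h passed in 12 of 15, Ptgs1 in 10 of 15 and Alox5ap in 7 of 15, each with the same sign in all. With 1 library left out, the log2 fold change was 0.26 to 0.36 for Lta4h and 0.21 to 0.29 for Ptgs1. It was 0.20 to 0.27 for Alox5ap and -0.78 to -0.51 for Cysltr1. Without control replicate 1, control replicate 2 or DB2313 replicate 2, only Ptafr of the 10 genes kept an adjusted p under 0.05 in edgeR. Calls over all genes also fell in these 3 fits, from 1503 with all libraries to 846, 796 and 739. In each of these 3 fits the unadjusted p was under 0.05 for 3 of the 10 genes that were higher and 2 that were lower. An unadjusted p under 0.05 was common, with 3309 of the 14174 genes tested in the edgeR fit of all libraries. With DESeq2 and with limma-voom, all libraries included, 3 were higher and 2 lower.

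**Figure D5:**
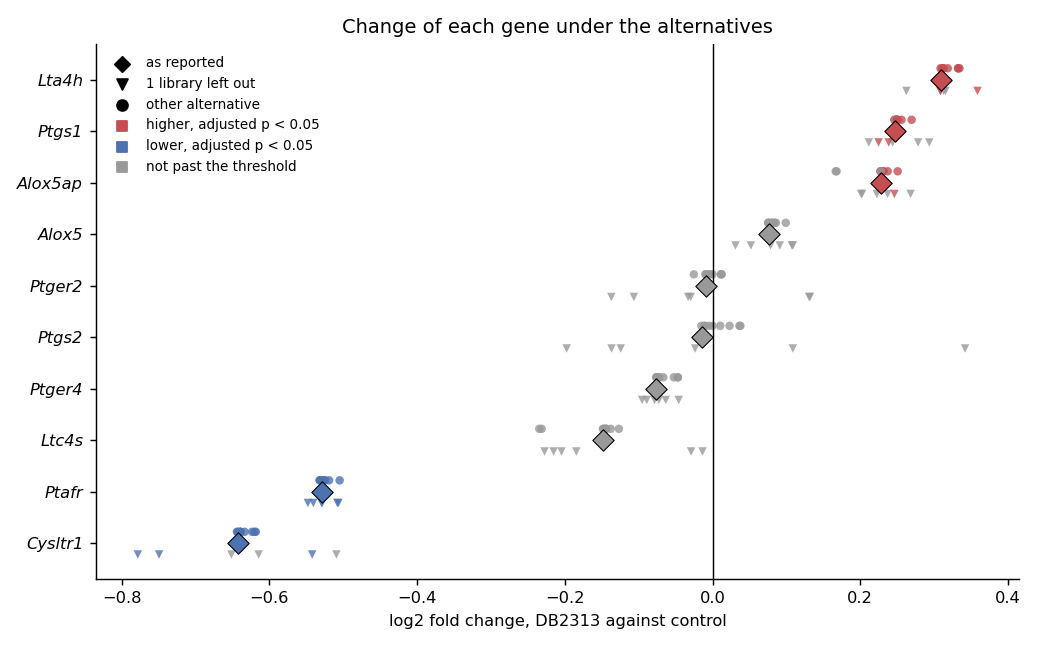
Log2 fold change of the 10 genes, DB2313 against control (x axis), as reported (large diamonds), with 1 library left out (triangles) and under the other alternatives (circles), coloured where the adjusted p was under 0.05. Ptafr is coloured throughout, whereas the triangles of Alox5ap, Lta4h, Ptgs1 and Cysltr1 include uncoloured ones, and Ptgs2 and Ptger2 lie on both sides of 0.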

How the data were processed

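RNA-seq counts of 6 libraries were used. The values deposited by the authors were raw counts, unnormalised and not pooled, beside a length for each gene. The notes of the submitters named CASAVA 1.8, HISAT2 2.0.5 and featureCounts 1.5.0-p3, whereas the methods of the study named LifeScope; genome build, strand setting and treatment of multi-mapping reads were not given in the sources used here. GENCODE M21 held 54409 of the identifiers, 98.33% of them at identical positions, so coordinates are GRCm38. The columns, named BMDC and SPI1 with numbers 1 to 3, were matched to the control and DB2313 samples of the same number.

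Groups were compared with the quasi-likelihood test of edgeR 4.0.16 (R 4.3.3, TMM scaling, filterByExpr, group as the only term, Benjamini-Hochberg over 14174 genes), which was checked on simulated counts. DESeq2 1.42.0, named by the study, and limma-voom (limma 3.58.1) were alternatives, besides other scalings and filters, a gene length offset (lowess, span 0.3), a replicate block and the omission of each library. Ratios were tested by exact permutation. The errors cover the spread between libraries, and reads were not collapsed to molecules. Copies were searched with blastn 2.17.0 at 95% identity over at least 100 bases. The genes and lists were chosen with earlier results of these data known. Named were the 10 genes, pathway genes past the threshold, and the gene of lowest p in lists without one; other pathway genes were named after their values were seen. The labels gave no batch.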

Additional observations from a re-analysis of the deposited data

How the results depend on the processing

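Under the 15 alternatives the 5 called genes kept their direction. With the replicate number as a block, 1131 of all genes tested passed (502 higher, 629 lower), against 1503 without it. Of the 10 genes 3 passed, 1 higher and 2 lower, as did 8 other pathway genes, 3 higher and 5 lower. The calls lost were those of Alox5ap and Ptgs1 (edgeR adjusted p = 0.13 and 0.102). Those of Lpcat2, Ptgr1, Pla2g16 and Akr1b3 were lost too (0.0930, 0.105, 0.0707 and 0.0650). The deviations of same-numbered libraries correlated at 0.0035, -0.024 and -0.12, which gave no sign of pairing but cannot exclude it. With each of the 6 libraries left out in turn, 1 to 5 of the 10 genes passed (0 to 3 higher, 1 to 2 lower). In every such fit 3 were higher and 2 lower at an unadjusted p under 0.05. With all libraries, 3309 of the 14174 genes tested had such a p in edgeR. Other pathway genes called ranged from 6 to 18 (2 to 8 higher, 3 to 10 lower), and all genes called from 739 to 2408 (328 to 1097 higher, 411 to 1311 lower). Both ends came from DB2313 libraries, the lowest without replicate 2 and the highest without replicate 3. The cause was not tested. The log2 fold changes of Ptgs2 and Ptger2, which passed in no alternative, turned positive in several. Ptgs2 was 0.010 with library totals, 0.036 with limma-voom, 0.023 with the block and 0.038 with block and length offset, and ranged from -0.20 to 0.34 with 1 library left out. Ptger2 was 0.012 with library totals, 0.012 with the length offset and 0.011 with offset and block, and ranged from -0.14 to 0.13 with 1 library left out.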
